A study of Mus musculus with 92 samples.

Results

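Untreated cells of a pair of engineered mouse embryonic stem cell lines were compared: the GABPB1/GABPB2 line, with 2 RNA-seq libraries, and the GABPB1 line, also with 2, out of 92 samples in the series. The libraries were chosen by their labels alone, as the 12 h DMSO libraries of these lines. All 16396 genes that passed the filter on low counts, of 56953 in the tables, were compared. Both lines are of the B6 background. The GABPB1/GABPB2 line is homozygous for a dTAG degron on both GABPB1 and GABPB2, and the GABPB1 line is homozygous for the degron on GABPB1 alone, so that tagged GABPB1 is common to them. The degron is a tag fused to the protein; dTAG-13, a small molecule, sends proteins that carry it to the proteasome, and the cells described here received only its solvent, DMSO. All cells grew in serum with LIF, the MEK inhibitor PD0325901 and the GSK3 inhibitor CHIR99021. The labels give no batch, and do not say how many clones a line holds or whether one line was derived from the other. The GABPB2 tag, clone, culture history and any batch therefore cannot be told apart. The design text calls the libraries of a group biological duplicates without saying whether cultures were separate. The p-values measure the spread between such libraries, pooled over all 12 RNA-seq libraries (6 groups of 2). They do not rest on the spread of the compared libraries alone.

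GABP is an ETS-family transcription factor. Its GABPA subunit binds DNA at purine-rich GGAA sites, and its GABPB subunits, encoded by Gabpb1 and Gabpb2, carry the transactivation part and bring GABPA molecules together. In embryonic stem cells in this medium, LIF acts through STAT3, the MEK inhibitor blocks the FGF-ERK signal towards differentiation, and GSK3 inhibition stabilises beta-catenin, which acts with TCF and LEF proteins on Wnt target genes. Cloned stem cell lines are known to differ in imprinted genes, which are expressed from 1 parental copy, and in the share of cells in the transient 2-cell-like state.

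The libraries held 26.4 and 19.5 M counts in the GABPB1/GABPB2 line and 28.5 and 31.6 M in the GABPB1 line. Mean fragment length was 231.5 and 268.2 bases in the GABPB1/GABPB2 line, against 290.2 and 292.5 bases in the GABPB1 line. Replicates of the GABPB1/GABPB2 line also stood further apart, with a median absolute log2 gap between them of 0.164, against 0.0727 in the GABPB1 line. The part of these gaps in the results below was not tested. Both lines carried the embryonic stem cell markers: the 8 defining genes, Pou5f1 among them, summed to 2959 and 2865 TPM in the GABPB1/GABPB2 line and 3112 and 3070 TPM in the GABPB1 line.

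The untreated lines differed in many genes. In DMSO, 2451 genes were higher in the GABPB1/GABPB2 line (14.9% of those tested) and 2462 were lower (15.0%) at an adjusted p under 0.05 in edgeR's quasi-likelihood test, together 30.0%. A fit of the 4 compared libraries alone, without the spread of the other groups, called 3784 genes, against 4913 in the pooled fit. Most differences were small. A difference of over 2-fold was found in 944 of the higher genes (5.76% of those tested) and 322 of the lower genes (1.96%). Levels of the 2 groups did not overlap for 10344 genes (63.1%), which include 4905 of the 4913 called genes. Non-overlap in a called gene named below therefore adds little to its call. Without GABPB1 replicate 1 or replicate 2 in DMSO, the number of higher genes was 1359 or 1296.

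In the fit of all genes tested, the direction varied with expression level. Among 2882 genes with an average below 1 CPM (log2 CPM of 0), 404 were higher and 61 lower in the GABPB1/GABPB2 line, with a median difference of 0.45 on the log2 scale. In the 3467 genes with an average log2 CPM of 6 or more, 388 were higher and 912 lower, with a median of -0.06. This balance at higher levels turned with the scaling: fitted alone, the 9509 genes averaging log2 CPM 3 or more gave 1741 higher and 1439 lower, and upper-quartile scaling of all genes gave 2678 higher and 2091 lower. Long noncoding RNAs, of which 612 were tested, had 91 higher and 20 lower members and a median of 0.31. Over all genes tested, 14.9% were higher and 15.0% lower, with a median of 0.0164. The higher share of these RNAs was thus near that of all genes, and their lower share was smaller. Among genes averaging log2 CPM 3 or more, the median difference was 0.023 for 638 genes shorter than 1000 bases and -0.049 for 4626 genes of 3000 bases or more. No autosome or X chromosome shifted as a whole, with chromosome medians between -0.028 and 0.085.

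**Figure D1:**
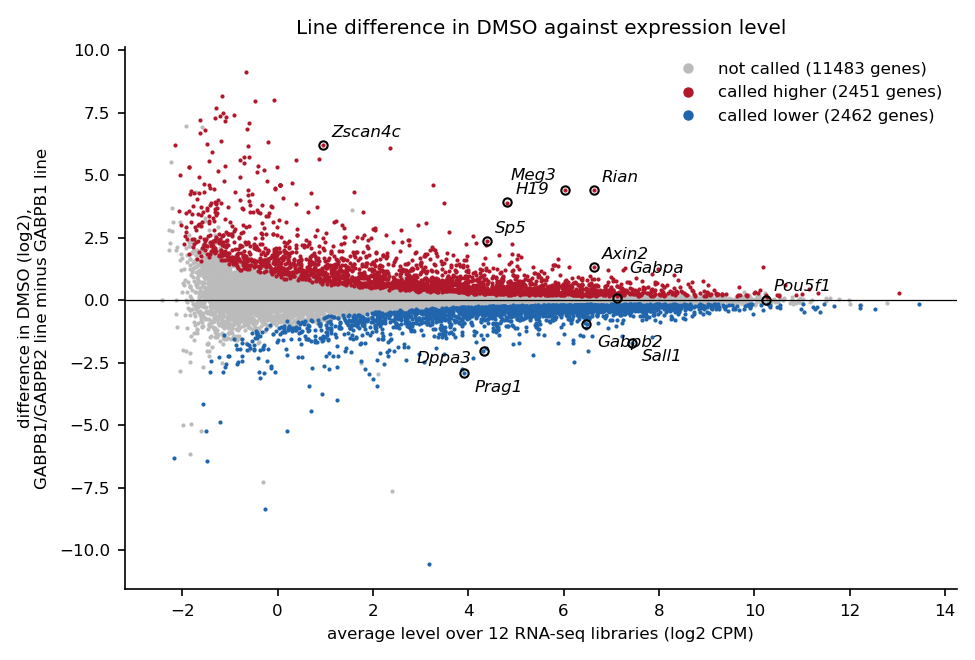
Difference between the lines in DMSO (log2, GABPB1/GABPB2 line minus GABPB1 line) against the average level over 12 libraries (log2 CPM), with 1 point per gene, called genes in colour and 12 genes named. Called genes are split about equally above and below 0, and the low-expressed end leans upwards.

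Of the GABP subunits, Gabpb2 alone was called, with lower mRNA in the line in which GABPB2 also carries the degron. Gabpb2 had 44.9 and 49.7 CPM (counts scaled to library size) in the GABPB1/GABPB2 line, against 89.4 and 93.2 CPM in the GABPB1 line. The groups did not overlap, and the difference was -0.95 ± 0.073 (log2, SE; edgeR adjusted p = 7.38e-08). In the GABPA line, where GABPB2 is untagged, Gabpb2 had 86.0 and 82.8 CPM in DMSO. The dTAG-13 libraries gave 63.0 and 58.8 CPM in the GABPB1/GABPB2 line and 104 and 99.9 CPM in the GABPB1 line, a difference of -0.74. Gabpa had 144 and 161 CPM in the GABPB1/GABPB2 line and 142 and 144 CPM in the GABPB1 line (difference 0.10 ± 0.0684). Gabpb1, tagged in both lines, had 30.6 and 36.8 CPM in the GABPB1/GABPB2 line and 32.8 and 32.0 CPM in the GABPB1 line (difference 0.05 ± 0.104). Neither was called, with edgeR adjusted p of 0.305 for Gabpa and 0.758 for Gabpb1. Gabpb2 overlaps Gm16740 and Gabpa overlaps Atp5j on the opposite strand, and without stated strand handling their reads cannot be told apart.

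The promoter of Gabpb2 is shown because its product belongs to an ETS complex and its mRNA differed. The window is from RefSeq (GRCm38.p6, chr3:95217893-95218192, minus strand), 250 bases before to 50 after the start of the gene. Capitals mark the letters CCGGAA, an ETS core searched on both strands, found 1 time here and in 14.9% of 32851 such windows.
Gabpb2: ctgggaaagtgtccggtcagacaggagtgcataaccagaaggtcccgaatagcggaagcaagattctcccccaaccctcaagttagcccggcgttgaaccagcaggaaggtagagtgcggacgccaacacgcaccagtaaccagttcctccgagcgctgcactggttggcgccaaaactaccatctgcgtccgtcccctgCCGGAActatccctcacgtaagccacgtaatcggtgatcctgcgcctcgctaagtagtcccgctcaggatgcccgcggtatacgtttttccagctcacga

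Ordered by size, the largest gains in the GABPB1/GABPB2 line among genes averaging log2 CPM 3 or more were in imprinted noncoding RNAs. Rian, a noncoding RNA of the Dlk1-Meg3 region, had 264 and 285 CPM in the GABPB1/GABPB2 line, against 13 and 12.8 CPM in the GABPB1 line, a difference of 4.41 ± 0.0786 (edgeR adjusted p = 7.05e-15). Meg3, its neighbour, had 203 and 165 CPM in the GABPB1/GABPB2 line, against 8.80 and 8.74 CPM in the GABPB1 line (4.39 ± 0.114). Non-overlap of the groups was required of the genes in this ranking. Obox6, an oocyte-type homeobox gene, had 26.6 and 32.9 CPM in the GABPB1/GABPB2 line, against 1.88 and 2.14 CPM in the GABPB1 line (3.87 ± 0.144). Hmga2, a chromatin protein gene of embryonic cells, had 48.4 and 53.2 CPM in the GABPB1/GABPB2 line, against 11.6 and 9.59 CPM in the GABPB1 line (2.26 ± 0.0998). The 15 genes also held H19, Igf2 and Sp5, described below, the keratin gene Krt18 (2.27), and the dimethylglycine dehydrogenase gene Dmgdh (3.08). The others were Fam198b, A2m (a protease inhibitor), Nt5e (an ecto-nucleotidase), Plce1 (a phospholipase C), Cnga3 (a channel subunit) and Elobl, between 1.99 and 2.72.

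The largest losses included regulators of the stem cell state. Prag1, a pseudokinase scaffold, had 4.75 and 3.63 CPM in the GABPB1/GABPB2 line, against 32.2 and 32.1 CPM in the GABPB1 line, a difference of -2.92 ± 0.126 (edgeR adjusted p = 1.11e-10). Foxn4, a forkhead factor, had 4.57 and 3.43 CPM in the GABPB1/GABPB2 line, against 27.3 and 27.8 CPM in the GABPB1 line (-2.76 ± 0.131). Dppa3, also called Stella, which limits maintenance methylation of DNA, had 9.44 and 11.6 CPM in the GABPB1/GABPB2 line, against 41.3 and 44.0 CPM in the GABPB1 line (-2.03 ± 0.102). Levels of the lines did not overlap in these genes, which the rule that picked them required. Tfap2c, an AP-2 factor, had 38.5 and 38.9 CPM in the GABPB1/GABPB2 line, against 129 and 128 CPM in the GABPB1 line (-1.73 ± 0.0734). Sall1, a zinc-finger repressor gene with an antisense neighbour, had 99.8 and 110 CPM in the GABPB1/GABPB2 line, against 340 and 341 CPM in the GABPB1 line (-1.70 ± 0.0709). The remaining members were Phf19 (a partner of Polycomb repressive complexes, -2.46), Slit2 (a guidance cue, -2.30), Krt42 (-2.21), Lrrc15, Kctd15, Cotl1, Tor3a, Esrp1 (a splicing regulator), Slco5a1 and Ldhb, a lactate dehydrogenase subunit (-1.48). Each of these 30 genes was called under every alternative setting tried.

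**Figure D2:**
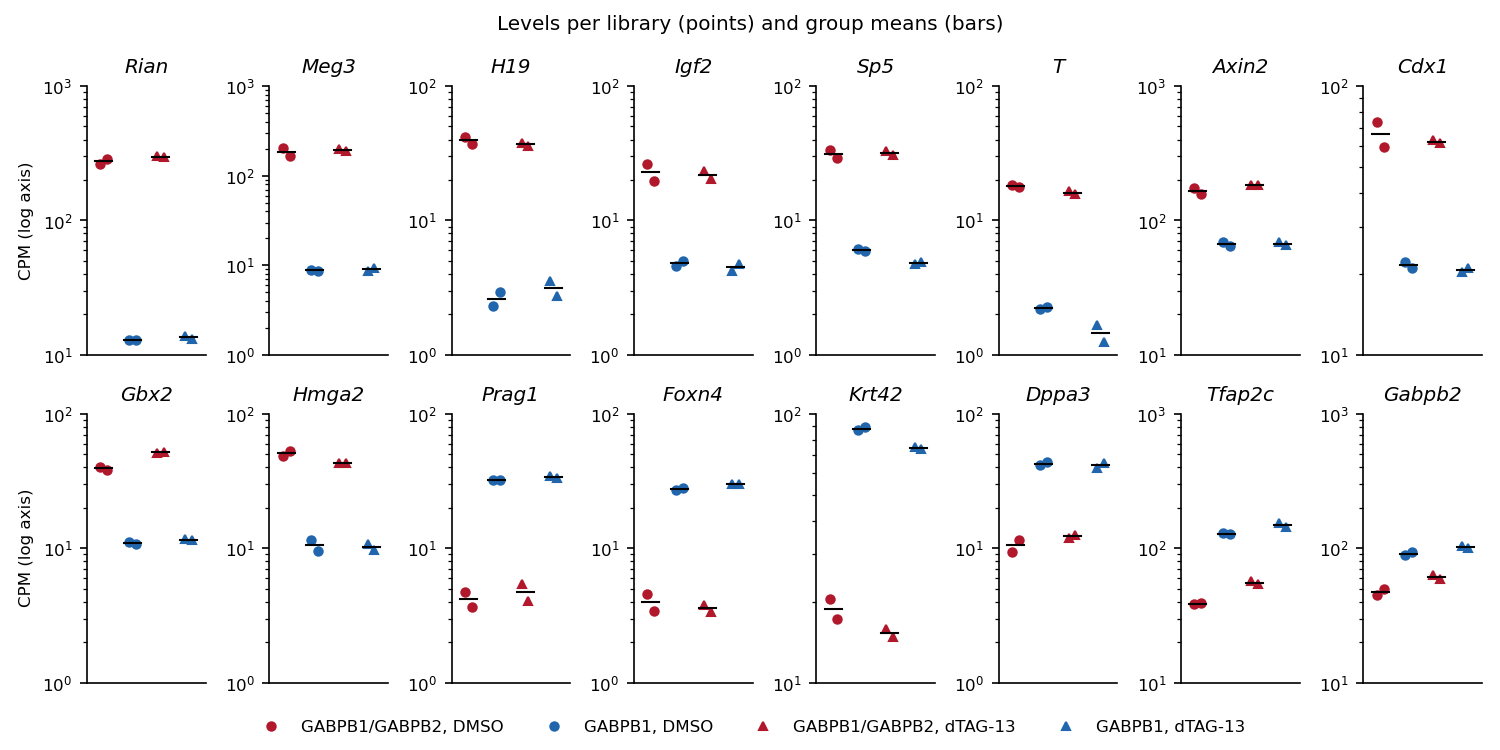
CPM per library (points, log axis) and group means (bars) of 16 genes in the GABPB1/GABPB2 line (red) and the GABPB1 line (blue), in DMSO (circles) and dTAG-13 (triangles). In each gene the lines do not overlap in DMSO, and the dTAG-13 libraries show the same order, as for Rian with 264 and 285 CPM against 13 and 12.8 CPM in DMSO.

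Targets of Wnt and beta-catenin were mostly higher. Of 16 tested, 10 were higher and 2 lower in the GABPB1/GABPB2 line, with a median of 1.03, against 14.9% higher, 15.0% lower and a median of 0.0164 over all genes tested. Leaving out 1 of the 4 libraries in turn gave 9 or 10 higher members, and the fit limited to genes averaging log2 CPM 3 or more, which drops low-level members, gave 5 higher with a median of 0.39. Sp5, a zinc-finger target and repressor of the pathway, had 33.3 and 29.3 CPM in the GABPB1/GABPB2 line, against 6.14 and 5.97 CPM in the GABPB1 line, a difference of 2.37 ± 0.098 (edgeR adjusted p = 9.72e-11). T, or Brachyury, a mesoderm factor, had 18.4 and 17.8 CPM in the GABPB1/GABPB2 line, against 2.20 and 2.26 CPM in the GABPB1 line (3.02 ± 0.144). Axin2, a feedback inhibitor, had 175 and 156 CPM in the GABPB1/GABPB2 line, against 69.3 and 64.3 CPM in the GABPB1 line (1.31 ± 0.0694). The 2 lines kept apart in all of these, as in nearly all called genes. Cdx1, a caudal homeobox gene, had 73.7 and 59.2 CPM in the GABPB1/GABPB2 line, against 22.1 and 21.1 CPM in the GABPB1 line (1.63 ± 0.105). Cdx2 differed by 3.00 ± 0.343 from a low level of at most 0.629 CPM in the GABPB1 line. Lef1, a DNA-binding partner of beta-catenin that overlaps Gm43352 on the other strand, had 25.7 and 28.5 CPM in the GABPB1/GABPB2 line, against 11 and 10.8 CPM in the GABPB1 line (1.31 ± 0.116). Dkk1, a secreted inhibitor singled out after its values were seen, had 1.89 and 2.14 CPM in the GABPB1/GABPB2 line, against 0.175 and 0.0943 CPM in the GABPB1 line (3.86 ± 0.394). The 2 lower members were also noticed afterwards: the receptor gene Fzd7 (-0.91 ± 0.0772) and Tcf7l1, the repressor of the TCF family (-0.53 ± 0.0654).

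Of the 10 higher Wnt targets, 9 had a promoter window in the RefSeq table, and 4 of those held a TCF motif: Dkk1, Lef1, Sp5 and T. On both strands the letters searched were CTTTGAA as the first form, CTTTGAT as the next form, CTTTGTA as a further form and CTTTGTT as the last form, and 16.9% of all windows hold at least 1 of them. A match is a description of the letters and not a binding site. The windows of Sp5 (GRCm38.p6, chr2:70474673-70474972, plus strand), Dkk1 (chr19:30549447-30549746, minus strand) and T (chr17:8434173-8434472, plus strand) are shown as the targets with the widest gaps among those with a match, with matches in capitals.
Sp5: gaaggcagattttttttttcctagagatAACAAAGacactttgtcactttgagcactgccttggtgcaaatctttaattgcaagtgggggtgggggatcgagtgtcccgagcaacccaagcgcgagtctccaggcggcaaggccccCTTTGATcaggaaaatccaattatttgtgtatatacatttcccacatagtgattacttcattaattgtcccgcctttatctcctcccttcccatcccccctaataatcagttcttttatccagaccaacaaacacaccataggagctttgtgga
Dkk1: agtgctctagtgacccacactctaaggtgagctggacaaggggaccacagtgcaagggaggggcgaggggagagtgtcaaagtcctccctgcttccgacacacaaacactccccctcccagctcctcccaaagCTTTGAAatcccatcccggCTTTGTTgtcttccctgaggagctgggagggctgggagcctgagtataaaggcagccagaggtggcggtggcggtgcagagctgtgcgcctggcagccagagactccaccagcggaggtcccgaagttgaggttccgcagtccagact
T: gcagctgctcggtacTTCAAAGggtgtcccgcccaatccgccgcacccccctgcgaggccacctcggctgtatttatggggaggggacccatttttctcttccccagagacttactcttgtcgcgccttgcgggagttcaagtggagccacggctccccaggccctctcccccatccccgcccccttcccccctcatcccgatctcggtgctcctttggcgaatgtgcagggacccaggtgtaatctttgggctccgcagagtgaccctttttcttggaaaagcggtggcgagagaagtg
Sp5 and Dkk1 each held 2 matches in 300 bases, and T held 1.

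Feedback genes of the MEK-ERK pathway divided. Of 17 tested, 9 were higher and 3 lower in the GABPB1/GABPB2 line, with a median of 0.28, beside 14.9% and 15.0% of all genes. Without GABPB1 replicate 1, 5 were higher. Fos, an immediate early gene, had 7.84 and 8.94 CPM in the GABPB1/GABPB2 line, against 1.12 and 1.26 CPM in the GABPB1 line (2.81 ± 0.208). Egr1, another one, had 4.32 and 4.77 CPM in the GABPB1/GABPB2 line, against 0.768 and 0.534 CPM in the GABPB1 line (2.80 ± 0.285). Spry2, an inhibitor of receptor signalling, had 174 and 178 CPM in the GABPB1/GABPB2 line, against 77.1 and 76.6 CPM in the GABPB1 line (1.19 ± 0.0745). None of these overlapped between the lines, as was so for nearly all called genes. Dusp6, a phosphatase that turns off ERK, went the other way, with 11.4 and 9.09 CPM in the GABPB1/GABPB2 line and 20.2 and 19.3 CPM in the GABPB1 line (-0.93 ± 0.117). Of 14 LIF and STAT3 targets, 7 were higher and 2 lower, with a median of 0.24. Gbx2, a homeobox gene of that list, had 40.4 and 38.3 CPM in the GABPB1/GABPB2 line, against 11.1 and 10.7 CPM in the GABPB1 line (1.85 ± 0.0894). The STAT3 inhibitor Socs3 differed less (0.42 ± 0.0678). Of 16 Nodal and BMP targets, 3 were higher and 5 lower, with Id1 at 1.08 ± 0.19 and the Nodal inhibitors Lefty1 at -0.99 ± 0.12 and Lefty2 at -0.63 ± 0.0766.

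Pluripotency genes differed in both directions, mostly by little, beside 14.9% higher and 15.0% lower over all genes tested. Pou5f1, encoding OCT4, had 993 and 885 CPM in the GABPB1/GABPB2 line and 917 and 937 CPM in the GABPB1 line, overlapping groups with a difference of 0.02 ± 0.0548 that was not called. Nanog was lower at 542 and 617 CPM in the GABPB1/GABPB2 line, against 709 and 704 CPM in the GABPB1 line (-0.29 ± 0.0658), and Sox2 differed by -0.43 ± 0.0593 and Esrrb by -0.41 ± 0.0499. Klf4 (0.35 ± 0.0675) and Tfcp2l1 (0.32 ± 0.068), naive-state factors, were higher. Of 32 naive and general pluripotency genes, 8 were higher and 12 lower, with a median of -0.10, and 5 were higher without GABPB1 replicate 1 and also without GABPB1 replicate 2. Besides Dppa3, the largest lower member was Tcl1, an AKT cofactor, at 23.8 and 22.1 CPM in the GABPB1/GABPB2 line and 49.5 and 49.6 CPM in the GABPB1 line (-1.11 ± 0.083). Gbx2, given above, was the largest higher member. The 17 formative and primed genes had 4 higher and 6 lower. The largest difference there was in Otx2, a low-level gene noticed afterwards (-2.86 ± 0.598). It had 0.109 and 0.248 CPM in the GABPB1/GABPB2 line, against 1.54 and 1.01 CPM in the GABPB1 line. Lef1, given above, was the largest higher member of that list. The methyltransferase gene Dnmt3a was higher (0.86 ± 0.0715), as was its cofactor gene Dnmt3l (0.82 ± 0.0555), and Zic2 (-0.80 ± 0.0746) and Zic5 (-0.64 ± 0.0841) were lower. Of 16 genes of the DNA methylation machinery, 5 were higher and 5 lower, and leaving out 1 library gave 3 to 5 higher and 3 to 8 lower.

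Markers of other cell types stayed low beside the stem cell markers. The 4 mesendoderm markers summed to 19.12 and 18.4 TPM in the GABPB1/GABPB2 line and 5.67 and 4.45 TPM in the GABPB1 line, of which T alone made up 16.42 and 16.06 TPM in the GABPB1/GABPB2 line and 1.90 and 1.93 TPM in the GABPB1 line. Mixl1 (1.59 ± 0.488) was called higher but not in DESeq2 or without any 1 of the 4 libraries, and Gsc, at -0.88 ± 0.335, was not called. The 6 trophectoderm markers summed to 78.1 and 70.3 TPM in the GABPB1/GABPB2 line and 93.1 and 92.0 TPM in the GABPB1 line. In that list Krt8 (1.79 ± 0.115) and Cdx2 were higher, Tfap2c was lower and Gata3 was not called. Eomes (0.33 ± 0.12) was called but lost its call under 10 alternatives. The 4 neuroectoderm markers summed to 31.3 and 27.1 TPM in the GABPB1/GABPB2 line and 28.0 and 27.6 TPM in the GABPB1 line, so these groups overlapped. Pax6, at 0.181 and 0.0994 CPM in the GABPB1/GABPB2 line and 0.908 and 0.849 CPM in the GABPB1 line, and Nes (-0.44 ± 0.0873) were lower, Sox1 (1.11 ± 0.226) was higher, and Olig2 was not called. The 6 primitive endoderm markers summed to 2.97 and 2.99 TPM in the GABPB1/GABPB2 line and 2.4 and 1.89 TPM in the GABPB1 line, with Gata4 alone called (0.91 ± 0.242).

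Fibroblast markers were at very low levels in both lines. The 7 feeder markers summed to 6.96 and 5.85 TPM in the GABPB1/GABPB2 line and 4.10 and 4.26 TPM in the GABPB1 line, and Col3a1, Postn and Lum were listed at 0 in all 4 libraries. Thy1 made up most of this sum, with 5.60 and 4.58 TPM in the GABPB1/GABPB2 line and 3.61 and 3.68 TPM in the GABPB1 line, and was not called (0.46 ± 0.191). Col1a1 alone of the 7 was called. Dcn was at 0 in 3 of the 4 and at 0.16 TPM in GABPB1/GABPB2 replicate 2. The part of such cells in the other results was not tested. In the wider list, 9 of 16 genes were tested, of which 5 were higher and 0 lower, beside 14.9% and 15.0% of all genes. Of these 9, 2 had under 10 reads in both GABPB1 libraries and passed the filter through other groups. A lower call was hardly possible for them. The median was 1.06, and its lowest value under an alternative was 0.36, with a lowest higher count of 1. Leaving out GABPB1 replicate 1 gave 3 higher. Col1a1, a collagen, had 4.46 and 3.53 CPM in the GABPB1/GABPB2 line, against 1.68 and 2.01 CPM in the GABPB1 line (1.12 ± 0.243), and Tagln differed by 1.40 ± 0.182. Acta2, smooth muscle actin, had 34 reads in the GABPB1/GABPB2 line and 3 in the GABPB1 line, a ratio of 14.8 with a 95% counting interval of 4.66 to 75.4. Vim differed by 0.33 ± 0.0722. In such bulk RNA, more cells of a type and more RNA per cell cannot be told apart.

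Imprinted genes of 2 chromosomal regions differed widely. The shares over all genes tested were 14.9% higher and 15.0% lower. Of 59 imprinted genes tested, 21 were higher and 8 lower in the GABPB1/GABPB2 line, with a median of 0.19, and leaving out 1 library in turn gave 18 to 21 higher and 4 to 10 lower. In the Dlk1-Mirg region of chromosome 12 (mm39, chr12:109418749-109715894), 7 of 7 tested genes were higher, with a median of 4.39. The region normally expresses Dlk1 and Rtl1 from the paternal copy and the noncoding RNAs Meg3, Rian and Mirg from the maternal copy. Both kinds differed the same way. Dlk1, encoding a Notch-related ligand, had 2.14 and 1.89 CPM in the GABPB1/GABPB2 line, against 0.419 and 0.409 CPM in the GABPB1 line (2.28 ± 0.332), and Rtl1 differed by 3.49 ± 0.44. Mirg had 9.98 and 6.71 CPM in the GABPB1/GABPB2 line, against 0.349 and 0.472 CPM in the GABPB1 line (4.33 ± 0.283). The 3 lines took 3 different levels: with the flanking gene Begain, the region summed to 491 and 465 CPM in the GABPB1/GABPB2 line, 3.57 and 3.51 CPM in the GABPA line, and 24.1 and 23.9 CPM in the GABPB1 line. The region, Dlk1, Rtl1, Mirg and Begain were singled out after their values were seen.

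The other region was H19 to Phlda2 on chromosome 7 (mm39, chr7:142129262-143056887), also picked afterwards, where 6 of 16 tested genes were higher and 2 lower. H19, a noncoding RNA expressed from the maternal copy, had 41.5 and 37.2 CPM in the GABPB1/GABPB2 line, against 2.30 and 2.92 CPM in the GABPB1 line (3.91 ± 0.127). Igf2, the neighbouring paternal growth factor gene, had 26.2 and 19.8 CPM in the GABPB1/GABPB2 line, against 4.61 and 5.03 CPM in the GABPB1 line (2.26 ± 0.15). Both had levels near those of the GABPB1/GABPB2 line in the GABPA line, at 39.8 and 36.4 CPM for H19 and 20.5 and 19 CPM for Igf2. Igf2 overlaps Igf2os on the other strand. Further along, Kcnq1ot1, a paternal noncoding RNA, had 36.7 and 27.9 CPM in the GABPB1/GABPB2 line, against 11.7 and 9.97 CPM in the GABPB1 line (1.59 ± 0.134). Phlda2, which lies in the domain that Kcnq1ot1 silences, had 9.22 and 8.35 CPM in the GABPB1/GABPB2 line, against 23.6 and 23.1 CPM in the GABPB1 line (-1.40 ± 0.0973). Nearby, Cdkn1c was also lower (-0.54 ± 0.178) and Ascl2 was higher (1.06 ± 0.223). Cd81, Tssc4 and Slc22a18 were not called in DMSO. A link between Kcnq1ot1 and these differences was not tested. Elsewhere, Snrpn was higher (0.64 ± 0.0595) and Sfmbt2 lower (-1.12 ± 0.0941), both picked after their values were seen.

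**Figure D3:**
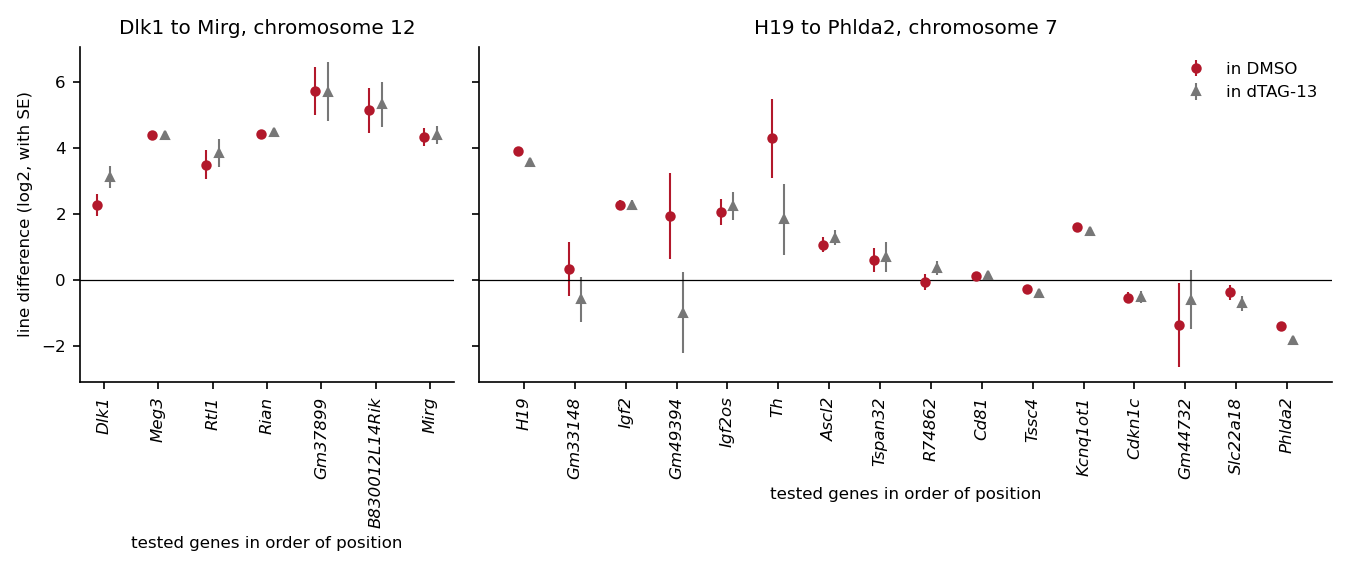
Line difference (log2 with SE, GABPB1/GABPB2 line minus GABPB1 line) for each tested gene of 2 imprinted regions, in order of position, in DMSO (circles) and dTAG-13 (triangles). All 7 genes of the Dlk1-Mirg region lie above 0, whereas the other region runs from H19 at 3.91 to Phlda2 at -1.40 in DMSO.

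Genes of the 2-cell-like state were nearly silent in the GABPB1 line and measurable in the GABPB1/GABPB2 line. Of 13 tested members, of 25 listed, 12 were higher and 0 lower, with a median of 3.71. Of these 13, 9 had under 10 reads in both GABPB1 libraries and passed the filter through other groups, so that a lower call was hardly possible and the count is a description only. Genes averaging below 1 CPM leaned upwards in general, with the median of 0.45 given above. The 6 marker genes summed to 6.59 and 8.48 TPM in the GABPB1/GABPB2 line and 3.85 and 3.79 TPM in the GABPA line, against 0.31 and 0.33 TPM in the GABPB1 line. Zscan4c, a telomere and genome stability factor, had 192 reads in the GABPB1/GABPB2 line and 3 in the GABPB1 line, a ratio of 83.7 (95% counting interval 28.2 to 409). Zscan4a had 129 reads in the GABPB1/GABPB2 line and 3 in the GABPB1 line, a ratio of 56.2 (18.8 to 276). Zscan4b had 82 reads in the GABPB1/GABPB2 line and 1 in the GABPB1 line, a ratio of 107 (18.7 to 4290). Intervals cover counting error only. Pramel7, a gene of naive cells and early embryos, had 8.13 and 9.64 CPM in the GABPB1/GABPB2 line, against 1.75 and 1.63 CPM in the GABPB1 line (2.39 ± 0.197). Usp17le differed by 3.51 ± 0.497 and Zscan4d by 3.71 ± 0.496, and Tcstv1, with 6 reads in the GABPB1/GABPB2 line and 1 in the GABPB1 line, was not called. The Zscan4 and Usp17l copies are near-identical, so that the split of reads among them is uncertain.

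Neighbouring genes were higher together at several places. By a rule chosen after values were seen, runs of at least 4 neighbouring tested genes, all called in the same direction and over 2-fold, were listed. There were 12 runs with 75 genes, of which 12 runs were higher and 0 lower in the GABPB1/GABPB2 line. Several hold genes near 0 in the GABPB1 line, where a lower run was hardly possible. A run of 7 on chromosome 10, for example, summed to 0.419 and 0.377 CPM in the GABPB1 line. The count of runs is therefore a description only. The Zscan4 cluster (mm39, chr7:10528169-11348039) was a run of 9, which summed to 21.0 and 28.4 CPM in the GABPB1/GABPB2 line and 15.8 and 14.5 CPM in the GABPA line, against 0.838 and 1.29 CPM in the GABPB1 line. A run of 13 predicted genes on chromosome 12 (chr12:87526878-88299895) summed to 14.0 and 15.6 CPM in the GABPB1/GABPB2 line, against 0.872 and 0.755 CPM in the GABPB1 line. These runs hold multi-copy genes of low level. Another run of 5 held Bhmt, Bhmt2 and Dmgdh, genes for enzymes of betaine metabolism, with Arsb and Lhfpl2 (chr13:93753183-94331917), and summed to 57.8 and 61.7 CPM in the GABPB1/GABPB2 line, against 18.1 and 16.0 CPM in the GABPB1 line. A run of 4 zinc-finger and related genes on chromosome 4 (chr4:147445760-147669655), among them Zfp982 and Zfp985, summed to 137 and 167 CPM in the GABPB1/GABPB2 line, against 52.2 and 53.4 CPM in the GABPB1 line. Hoxc13, Hoxc12, Hoxc10 and Hoxc4 formed 1 more run, at 5.01 and 5.47 CPM in the GABPB1/GABPB2 line and 1.43 and 1.54 CPM in the GABPB1 line.

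Germline genes followed the same direction. Of 32 tested, 18 were higher and 1 lower in the GABPB1/GABPB2 line, with a median of 0.78, beside the upward lean of low-level genes. Of these 32, 4 had under 10 reads in both GABPB1 libraries, so that a lower call was hardly possible for them. The lowest higher count under an alternative was 7. Among all genes tested, 14.9% were higher and 15.0% lower. Dazl, a germ cell RNA-binding protein gene, had 17.8 and 21.4 CPM in the GABPB1/GABPB2 line, against 5.83 and 5.50 CPM in the GABPB1 line (1.78 ± 0.128). Tex19.1, which restrains transposons, had 112 and 102 CPM in the GABPB1/GABPB2 line, against 59.2 and 60.5 CPM in the GABPB1 line (0.84 ± 0.0657). Brdt, a testis bromodomain gene, had 6.5 and 7.16 CPM in the GABPB1/GABPB2 line, against 0.768 and 0.409 CPM in the GABPB1 line (3.54 ± 0.248). No library of one line reached the other in these genes, as in nearly all called genes. On the X chromosome, Xlr3a was higher (1.83 ± 0.133), while Rhox5, Rhox6 and Rhox9, homeobox genes noticed afterwards, were lower. Rhox5 had 19.7 and 14.8 CPM in the GABPB1/GABPB2 line, against 44.3 and 48.0 CPM in the GABPB1 line (-1.41 ± 0.121). Of 9 Hox genes tested, of 39 listed, 6 were higher and 0 lower. Of the 9, 5 had under 10 reads in both GABPB1 libraries and passed the filter through other groups, so that this count too is a description only, and 3 were higher without GABPB1 replicate 2 or without GABPB1/GABPB2 replicate 2. Hoxc13 differed by 1.52 ± 0.239, Hoxc12 by 3.69 ± 0.612 and Hoxb9 by 1.59 ± 0.292. Of 21 clustered protocadherins, 2 were higher, Pcdhga1 and Pcdhgb7 (0.75 ± 0.234), both with antisense partners. Among 11 X-inactivation and sex chromosome genes, Xist (0.90 ± 0.244) and Ftx (2.08 ± 0.339) were higher, and the demethylase genes Kdm6a (-0.52 ± 0.0919) and Kdm5c (-0.18 ± 0.0567) lower. Xist overlaps its antisense partner Tsix.

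Nuclear genes for mitochondria include many known GABP targets. Of 13 protein genes of mitochondrial DNA, 8 were higher and 0 lower, with a median of 0.41. Without GABPB1/GABPB2 replicate 2, 5 were higher and 1 lower, and leaving out 1 library in turn moved the median between 0.14 and 0.58. The mitochondrial share of all counts was 2.42% and 3.41% in the GABPB1/GABPB2 line and 2.33% and 2.30% in the GABPB1 line. mt-Nd4, a subunit of complex I, had 2090 and 3010 CPM in the GABPB1/GABPB2 line, against 1700 and 1680 CPM in the GABPB1 line (0.59 ± 0.113). mt-Nd6 (0.93 ± 0.0752), mt-Nd4l (0.84 ± 0.077) and mt-Atp8 (1.37 ± 0.173) differed more, and mt-Nd6 overlaps mt-Nd5 on the other strand. Of 78 mitochondrial ribosome genes, 7 were higher and 3 lower (median 0.06, with a range of -0.08 to 0.12 over the alternatives). Both shares were smaller than the 14.9% and 15.0% of all genes. Without GABPB1/GABPB2 replicate 1, 6 were higher and 17 lower, without GABPB1/GABPB2 replicate 2, 6 and 5, and without GABPB1 replicate 1 or 2, 4 and 0. Mrps25 differed by 0.67 ± 0.0761, Mrpl46 by 0.71 ± 0.0863, Mrps11 by 0.55 ± 0.093 and Mrpl47 by 0.45 ± 0.0926. All 4 overlap other genes on the opposite strand. Of 81 nuclear genes of oxidative phosphorylation, 16 were higher and 9 lower, beside 14.9% and 15.0% of all genes, among them Uqcrb (0.63 ± 0.0842), Atp5mpl (0.76 ± 0.13), Ndufa12 (-0.47 ± 0.0802) and Atp5g2 (-0.32 ± 0.0598). The balance of this list turned with the GABPB1/GABPB2 library left out, with 5 higher and 22 lower without replicate 1 and 27 and 10 without replicate 2, and without GABPB1 replicate 1 or 2 it was 4 and 8 or 5 and 6. Of 47 genes for mitochondrial DNA expression and import, 6 were higher and 3 lower (1 to 6 and 2 to 8 without 1 library): the DNA polymerase gene Polg was higher (0.49 ± 0.0621), and the elongation factor gene Tefm (-0.36 ± 0.091) and the import genes Tomm40 (-0.23 ± 0.06) and Timm23 (-0.22 ± 0.0593) were lower.

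Other housekeeping groups differed by small amounts, and their counts depended on single libraries. Over all genes tested, 14.9% were higher and 15.0% lower. High-level genes leaned downwards in this fit, as given above, and the part of expression level in these counts was not tested. Of 86 cytosolic ribosomal protein genes, 19 were higher and 7 lower (median 0.06, with a range of -0.05 to 0.11 over the alternatives). Without GABPB1/GABPB2 replicate 1, 7 were higher and 23 lower, without its replicate 2, 29 and 6, and without GABPB1 replicate 1 or 2, 7 and 7 or 9 and 5. Rpl35 differed by 0.59 ± 0.0742, and the low-expressed copies Rpl39l and Rps3a2 by 2.5 ± 0.186 and -0.97 ± 0.152. Of 37 proteasome genes, 1 was higher, the testis-type subunit gene Psma8 (1.26 ± 0.142), and 5 lower, with Psmd4 at -0.24 ± 0.0597, Psmd13 at -0.22 ± 0.0572 and Psmc5 at -0.18 ± 0.0623. The lower share is near that of all genes, these 3 each lost their call under at least 1 alternative, and the lower count was 13 without GABPB1/GABPB2 replicate 1 and between 2 and 7 without another library. Of 48 DNA replication genes, 5 were higher and 12 lower (median -0.09; 0 to 3 higher and 11 to 19 lower without 1 library), with the helicase genes Mcm7 (-0.30 ± 0.0536) and Mcm2 (-0.26 ± 0.0505), the polymerase subunit gene Pold2 (-0.50 ± 0.0777) and Cdc45 (-0.35 ± 0.0672) lower. Of 30 genes of G2 and mitosis, 2 were higher, Pttg1 (0.50 ± 0.0769) and Prc1 (0.39 ± 0.0656), and 5 lower, the kinase genes Plk1 (-0.39 ± 0.0622) and Nek2 (-0.36 ± 0.0613) among them, with 2 to 10 lower without 1 library. Of 16 ETS family genes, 1 was higher, Spi1 (1.90 ± 0.452), and 2 lower, Elk1 (-0.49 ± 0.08) and Ets2 (-0.41 ± 0.0854).

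Of 30 targets of p53, 14 were higher and 2 lower in the GABPB1/GABPB2 line, with a median of 0.30, beside 14.9% higher and 15.0% lower of all genes tested, and leaving out 1 library in turn gave 10 to 12 higher and 2 or 3 lower. Aen, an apoptosis-linked nuclease gene, had 144 and 136 CPM in the GABPB1/GABPB2 line, against 85.3 and 82.2 CPM in the GABPB1 line (0.74 ± 0.073). Ccng1, cyclin G, had 266 and 311 CPM in the GABPB1/GABPB2 line, against 207 and 199 CPM in the GABPB1 line (0.51 ± 0.0802). The groups stood apart in both, as in nearly all called genes. Ei24 (0.55 ± 0.0637) and the repair gene Xpc (0.51 ± 0.07) were also higher. Of 18 interferon and antigen presentation genes, 7 were higher and 3 lower. The class I gene H2-K1 was higher, with 42.1 and 41.2 CPM in the GABPB1/GABPB2 line and 23.1 and 22.1 CPM in the GABPB1 line (0.88 ± 0.0836), whereas the 3 lower genes were the Ifitm family members Ifitm1 (-1.42 ± 0.0653), Ifitm3 (-0.79 ± 0.063) and Ifitm2 (-0.65 ± 0.0673). Of 16 heat shock genes, 3 were higher, Chordc1 (0.30 ± 0.0992), Bag3 (0.29 ± 0.103) and Hspb1 (0.28 ± 0.1), and 1 lower, Hspa8 (-0.21 ± 0.0516), all lost under at least 1 alternative.

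Of 30 gene IDs of the hypoxia and glycolysis list, 0 were higher and 11 lower in the GABPB1/GABPB2 line in DMSO, with a median of -0.14. Aldoa stood in it under 2 IDs, at -0.194 and 0.289, neither of them called. The shares of all genes tested were 14.9% and 15.0%. Genes averaging log2 CPM 6 or more had 388 higher and 912 lower of 3467. The part of expression level in the lists of this paragraph was not tested. Ndrg1, a hypoxia-induced gene, had 6.68 and 6.61 CPM in the GABPB1/GABPB2 line, against 16.4 and 19.2 CPM in the GABPB1 line (-1.42 ± 0.125). Egln3, an oxygen-sensing hydroxylase gene, had 10.7 and 8.45 CPM in the GABPB1/GABPB2 line, against 22.8 and 28.0 CPM in the GABPB1 line (-1.39 ± 0.135). The glucose transporter gene Slc2a1 (-0.49 ± 0.0651) and the glycolytic enzyme gene Gapdh (-0.34 ± 0.0461) were lower too. Of 32 cholesterol and fatty acid synthesis genes, 3 were higher and 11 lower (median -0.17; 1 to 3 and 10 to 14 without 1 library), with the regulator genes Srebf2 at -0.35 ± 0.0627 and Srebf1 at -0.34 ± 0.0702 and the elongase gene Elovl6 at 0.34 ± 0.071. Of 16 oxidative stress and metallothionein genes, 1 was higher, Gpx2 (0.95 ± 0.0996), and 5 lower, Gstm1 (-0.85 ± 0.0701), Mt2 (-0.65 ± 0.0943) and Gsr (-0.30 ± 0.0635) among them. Of 34 genes of the integrated stress response, 10 were higher and 3 lower (median 0.08), and leaving out 1 library in turn gave 3 to 7 higher and 3 to 5 lower. Its factor Atf3 differed by 1.91 ± 0.346, Nupr1 by 0.96 ± 0.139 and the amino acid transporter genes Slc7a1 and Slc7a3 by 0.72 ± 0.0687 and -0.49 ± 0.0591.

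**Figure D4:**
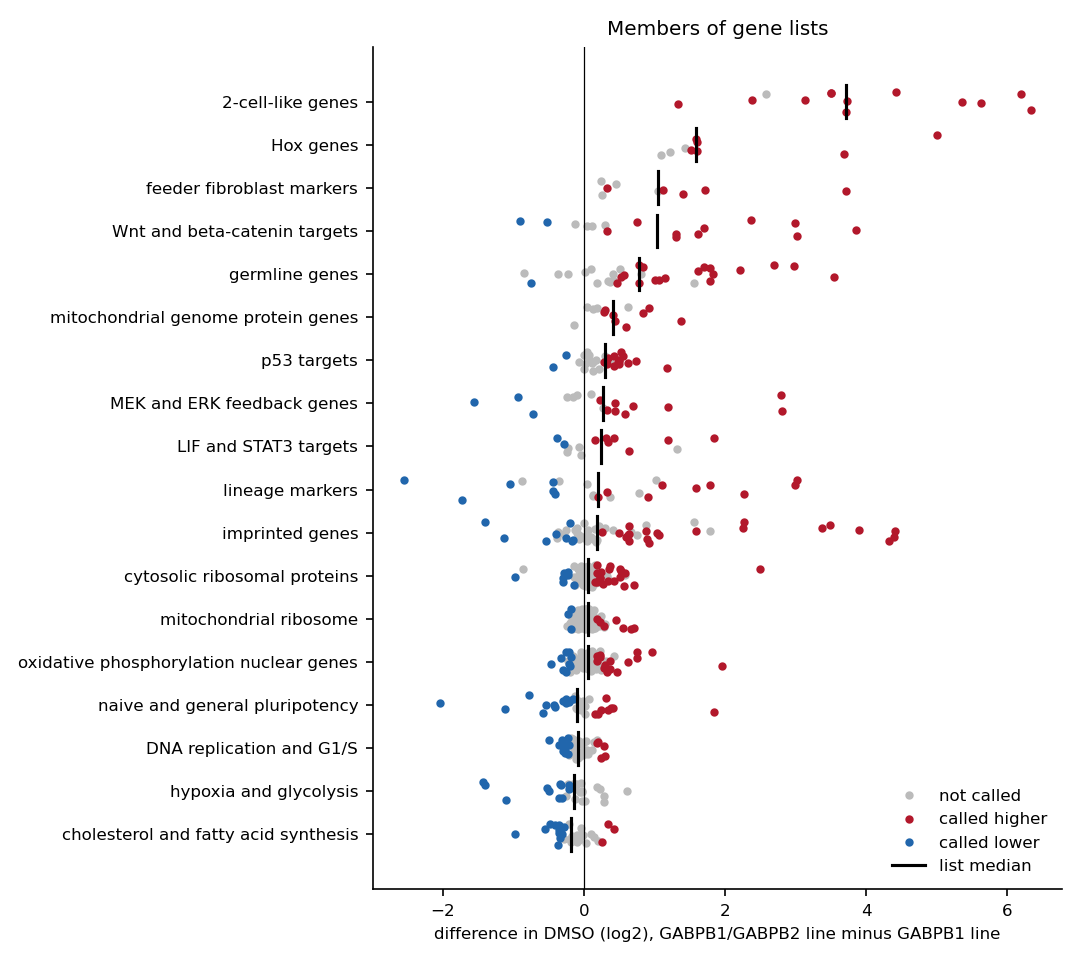
Line difference in DMSO (log2, GABPB1/GABPB2 line minus GABPB1 line) of each tested member of 18 gene lists, with called members in colour and the list median as a bar. The 2-cell-like genes have the widest shift, with a median of 3.71. Of the 13 tested, 9 had under 10 reads in both GABPB1 DMSO libraries, so that a lower call was hardly possible. The hypoxia and cholesterol lists lie slightly below 0.

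Most line differences were found again in other libraries of the same lines. In cells treated with 500 nM dTAG-13 for 12 h, which share no library with the DMSO groups but hold the response as well to loss of the tagged proteins, 2492 genes were higher in the GABPB1/GABPB2 line (15.2%) and 2727 lower (16.6%), together 31.8%. Over 2-fold, 894 were higher (5.45%) and 422 lower (2.57%). Leaving out 1 of these libraries gave between 1396 and 1499 higher genes. Of the 2451 genes higher in DMSO, 1734 (70.7%) were also called higher in dTAG-13, which was 69.6% of the dTAG-13 list, and 9 were called lower. Of the 2462 genes lower in DMSO, 1740 (70.7%) were also called lower, which was 63.8% of that list, and 3 were called higher. The sign was the same for 96.7% of the higher and 98.1% of the lower genes. Over all genes tested, 50.9% had a difference above 0 in dTAG-13 and 49.0% below 0. The Wnt list had 9 higher and 2 lower members in dTAG-13, with a median of 0.97. The p53 list had 18 higher and 1 lower with 0.35, and the 2-cell-like list 13 higher and 0 lower with 4.38. Of those 13, 9 had under 10 reads in both GABPB1 DMSO libraries and passed the filter through other groups. Their count in dTAG-13 is a description only.

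Some lists had other counts in dTAG-13 than in DMSO, and the difference of the counts was not tested. The hypoxia and glycolysis list had 8 higher and 3 lower members in dTAG-13, against 0 and 11 in DMSO. The integrated stress response list had 1 higher and 13 lower, against 10 and 3 in DMSO (3 to 7 and 3 to 5 there without 1 library), and the cholesterol and fatty acid list 8 higher and 4 lower, against 3 and 11 in DMSO. Over all genes tested, the line difference itself differed between dTAG-13 and DMSO in 166 genes by the interaction test, 14 with a higher and 152 with a lower value in dTAG-13. Lef1, Timm23, Ndrg1 and Egln3 were the named genes among them. Ndrg1 had 7.37 and 6.64 CPM in the GABPB1/GABPB2 line in dTAG-13, against 8.87 and 8.98 CPM in the GABPB1 line, and so the gap narrowed to -0.35.

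**Figure D5:**
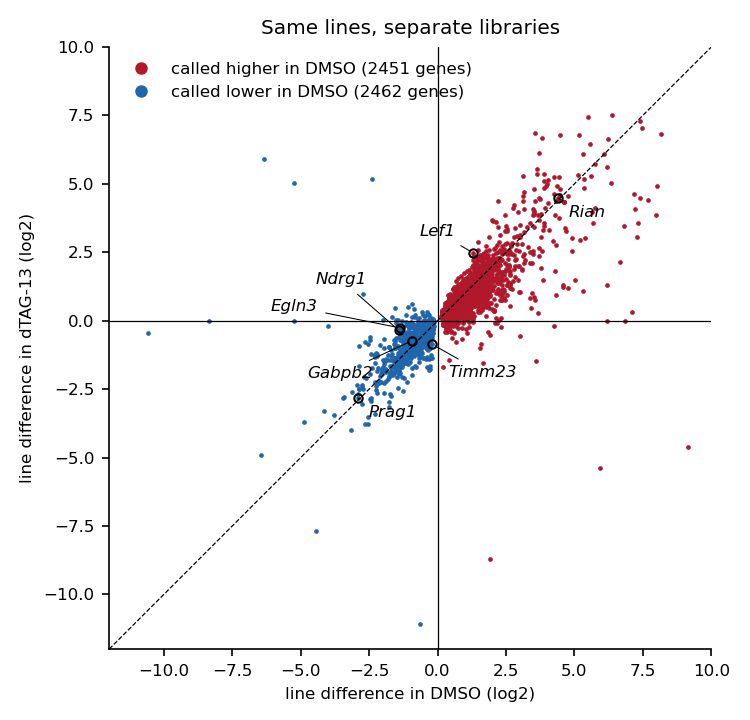
Line difference in dTAG-13 against that in DMSO (both log2, GABPB1/GABPB2 line minus GABPB1 line) for genes called in DMSO, with the dashed line marking equal values. Most points lie along that line, as Rian at 4.41 in DMSO and 4.47 in dTAG-13 does, and few lie in the quadrants of opposite sign.

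The GABPA line in DMSO served as a further untreated line, for description only. It stood apart from both lines over whole chromosomes: the median difference on chromosome 8 was -0.543 for the GABPB1/GABPB2 line minus the GABPA line and -0.523 for the GABPB1 line minus the GABPA line, on chromosome 6 -0.362 and -0.442, and on chromosome 11 0.413 and 0.378. The Y-linked genes Ddx3y and Eif2s3y were at 0 in both lines and were detected in the GABPA line. Among the 944 genes over 2-fold higher in the GABPB1/GABPB2 line, the GABPA line lay nearer to the GABPB1/GABPB2 line in 423 (44.8%) and nearer to the GABPB1 line in 521 (55.2%). Among the 322 genes over 2-fold lower, it lay nearer to the GABPB1/GABPB2 line in 199 (61.8%) and nearer to the GABPB1 line in 123 (38.2%). Dppa3 thus had 1.49 and 1.83 CPM in the GABPA line, below both other lines, and Sp5 had 29.1 and 29.0 CPM, close to the GABPB1/GABPB2 line. Xlr3a had 0.178 and 0.198 CPM there, below both.

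Genes that respond to GABPA loss, called in the GABPA line's own libraries, were also followed in untreated cells. In that line 24.5% of genes rose and 21.9% fell with dTAG-13. Of the 3591 that fell, 10.4% were higher and 19.8% lower in the untreated GABPB1/GABPB2 line than in the GABPB1 line, with a median of -0.044, against 14.9%, 15.0% and 0.016 over all genes tested. Of the 4025 that rose, 20% were higher and 15.8% lower, with a median of 0.031. Of the 1125 that rose over 2-fold, 27.2% were higher and 6.76% lower, with a median of 0.327. Those that fell over 2-fold, 1280 genes, had 8.98% higher and 13% lower with a median of -0.014. Low-level genes leaned upwards in this comparison, as given above, and the part of expression level in these shares was not tested.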

How the data were processed

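RNA-seq of polyadenylated RNA was analysed in 12 libraries (6 groups of 2). Groups came from the labels. The authors deposited, per the file headers, RSEM expected counts and TPM values per gene. The submitters' processing notes list Trim Galore 0.6.7, STAR 2.7.11a and RSEM 1.3.1 and the build mm39. For strand handling, none is stated in the labels. Mean fragment length was computed as the median of gene length minus effective length, plus 1, over genes longer than 3000 bases. Expected counts were rounded, which changes low counts most, and reads of near-identical copies were shared out by RSEM, so their split is an estimate.

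One fit in edgeR 4.0.16 under R 4.3.3 took in all 12 libraries, 1 coefficient per group, with TMM scaling and filterByExpr (minimum count 10, minimum total 15). The common biological coefficient of variation was 0.0608. Differences are log2 values, GABPB1/GABPB2 line minus GABPB1 line, tested with edgeR's quasi-likelihood test, Benjamini-Hochberg adjusted over 16396 genes (n = 2 against 2), called under 0.05. Standard errors are the difference divided by the root of the F statistic. CPM uses TMM library sizes and compares libraries within a gene, and TPM is used where marker genes are summed. The test was checked on simulated counts. Where a group held 1 to 3 reads, the ratio of summed reads has an exact 95% interval.

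Gene symbols were found for 52029 IDs. The 32 gene lists and their members were chosen with earlier results of these data known, and the libraries by their labels. Named genes were the GABP subunits, the 15 largest differences each way (called, averaging log2 CPM 3 or more, CPM of the lines not overlapping, with predicted genes, clone names and pseudogenes left out), up to 4 called members of each list with the smallest p, and the defining cell type markers. Alternatives were DESeq2 1.42.0, limma 3.58.1 with voom group weights, other scalings and filters, fits of fewer libraries, a replicate block and leaving out each library. A few genes that the rule names are not reported here.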

Additional observations from a re-analysis of the deposited data

Results flagged for a closer look

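The line difference was not the same in dTAG-13 as in DMSO for 4 of the named genes, by the interaction test in edgeR. Values here are the difference in dTAG-13 minus the difference in DMSO (log2). Lef1, the partner of beta-catenin, was at 1.16 ± 0.169 (edgeR adjusted p = 0.00145). It had 34.4 and 37.1 CPM in the GABPB1/GABPB2 line and 7.25 and 5.71 CPM in the GABPB1 line in dTAG-13, so the gap was wider there. Ndrg1 was at 1.08 ± 0.185 (edgeR adjusted p = 0.00539) and Egln3 at 1.14 ± 0.194 (edgeR adjusted p = 0.00516), and their gaps of -1.42 and -1.39 in DMSO narrowed to -0.35 and -0.26. Timm23, a mitochondrial import gene, was at -0.63 ± 0.0861 (edgeR adjusted p = 0.000719), with 60.9 and 62.8 CPM in the GABPB1/GABPB2 line and 110 and 113 CPM in the GABPB1 line in dTAG-13.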

How the results depend on the processing

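No named gene called in DMSO changed sign under an alternative. The balance of calls in DMSO did turn, with 2451 higher and 2462 lower genes as reported, 2678 and 2091 with upper-quartile scaling and 1991 and 2899 without GABPB1/GABPB2 replicate 1, and the median over all genes lay between -0.026 and 0.044. Of 446 list medians under an alternative 16 changed sign, and 0 of the 236 that belong to lists with a median of at least 0.1. For the line difference in DMSO, a limit to genes averaging log2 CPM 3 or more gave 1741 higher and 1439 lower genes of 9509 tested. In the fit of all genes, those at log2 CPM 3 to 6 had 869 higher and 1110 lower. Those at 6 or more had 388 and 912. Leaving out 1 library gave 1296 to 2063 higher genes in DMSO and 1396 to 1499 in dTAG-13, with the cause not tested. The 4 libraries of the comparison alone gave 3784 called genes in DMSO and 6971 in dTAG-13, against 4913 and 5219. DESeq2 gave 4043 called genes in DMSO and 4448 in dTAG-13. Replicate numbers did not pair the 2 lines within a treatment (correlation of deviations -0.00283 in DMSO and 0.00505 in dTAG-13). Pairing of DMSO with dTAG-13 libraries within a line was not tested. With a replicate block, 4821 genes were called in DMSO (5156 in dTAG-13), or 4389 with the 4 DMSO libraries alone. Of 153 called named genes, 133 were called under every alternative. The other 20, lost under at least 1, included Kdm5c, Psmc5, Bag3, Hspb1, Eomes, Mixl1, Pax6, Spi1 and Xist. With 2 libraries per line, and a wider spread in the GABPB1/GABPB2 line in DMSO, depth limits genes below 1 CPM most.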
